A study of Mus musculus with 4 samples.

Results

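The classical cadherins and catenins are the proteins of the adherens junction, and 10 of their genes were followed here out of 46983 gene identifiers in the deposited tables. They were found in the tables by symbol: 6 cadherins (*Cdh1*, *Cdh2*, *Cdh3*, *Cdh4*, *Cdh6* and *Cdh11*) and 4 catenins (*Ctnna1*, *Ctnna2*, *Ctnnb1* and *Ctnnd1*). Poly(A)-selected RNA of mouse vocal fold and larynx tissue was sequenced at E10.5, from embryos of 32 to 35 somites. There were 2 *Shh-/-* pools, numbered 1 and 2, and 2 wild-type (WT) pools, numbered 4 and 6, each made of 3 larynxes. The mutant pools carry *Shhtm1amc*, a germline null allele of Sonic hedgehog kept on a Swiss Webster background, so the ligand is missing from the whole embryo and not from the larynx alone. The sample labels write the mutant genotype as heterozygous, while the design text and the paper's methods give *Shh-/-*, which is used here. The WT pools are labeled Swiss Webster, and whether they were littermates of the mutants is not stated in the sources used here. Nothing in the labels says that pools of one genotype came from separate litters, so the p-values below apply to these pools and not to litters. Those from limma rest on the spread between these pools and on a variance shared across genes. Those from exact permutation rest on how the pools are arranged between the genotypes.

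Classical cadherins span the cell membrane and hold neighboring cells together by binding the same cadherin on the next cell in the presence of calcium. Their cytoplasmic tail binds beta-catenin (*Ctnnb1*) and, nearer the membrane, delta-catenin (*Ctnnd1*), and beta-catenin binds alpha-catenin, which meets the actin cytoskeleton. E-cadherin (*Cdh1*) and P-cadherin (*Cdh3*) are carried by epithelia, N-cadherin (*Cdh2*) by neural, cardiac and mesenchymal cells, and the exchange of the first for the last is known as a cadherin switch. Beta-catenin that is not bound at the membrane or destroyed in the cytoplasm enters the nucleus as the transcriptional partner of the Wnt pathway.

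The 6 cadherins fall into type I (*Cdh1*, *Cdh2*, *Cdh3* and *Cdh4*) and type II (*Cdh6* and *Cdh11*), and their coding sequences show the division. Type I cadherins carry a histidine-alanine-valine tripeptide in the first extracellular domain, which type II cadherins lack. The following 30 coding bases surround that site in GENCODE M21 transcripts of GRCm38 (mm10), with the 3 codons in capitals, or the codons aligned to them in type II. They are shown because this site separates the cadherins whose transcripts are compared below.
Cdh1: atcctctattctCATGCCGTGtcatcaaat
Cdh3: gagctttatggcCACGCTGTAtctgagaat
Cdh4: catctccgagccCACGCGGTGgatatgaac
Cdh6: atccttcgagctCAAGCTGTCaacagaagg
Cdh11: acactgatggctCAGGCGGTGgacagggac

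The stretches of *Cdh1* (chr8:106653917-106656850, plus strand), *Cdh3* (chr8:106536969-106537100, plus strand) and *Cdh4* (chr2:179843122-179847246, plus strand) each join the end of exon 5 to the start of exon 6, so an intron lies within these positions. Those of *Cdh6* (chr15:13064401-13064430, minus strand, exon 3) and *Cdh11* (chr8:102673933-102673962, minus strand, exon 4) lie in a single exon and do not code for the tripeptide. *Cdh2* codes for it, and its sequence is not printed. Over the whole coding sequence, the closest pairs were *Cdh2* with *Cdh4* (65.6% of aligned bases identical), *Cdh1* with *Cdh3* (61.9%) and *Cdh6* with *Cdh11* (60.5%), whereas *Cdh1* and *Cdh11* shared 46.8%. Over the last 150 codons, which hold the catenin-binding tail, identity was higher, at 76.2% for *Cdh1* with *Cdh3*, 74.9% for *Cdh2* with *Cdh4* and 63.1% for *Cdh6* with *Cdh11*. The lowest identity there, 54.6%, was between *Cdh1* and *Cdh6*. *Cdh3* and *Cdh1* are also neighbors, on the same strand of chromosome 8 and 46.4 kb apart.

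In the mm10 coordinates of the tables, chromosome 8 holds *Cdh11* (102632995 to 102785111, minus strand), *Cdh3* (106510913 to 106556908, plus strand) and *Cdh1* (106603351 to 106670246, plus strand). *Cdh2* (16588877 to 16809246, minus strand) and *Ctnna1* (35118888 to 35254773, plus strand) lie on chromosome 18, and *Cdh4* (179442431 to 179899373, plus strand) and *Ctnnd1* (84600071 to 84650765, minus strand) on chromosome 2. *Cdh6* is on chromosome 15 (13034200 to 13173639, minus strand), *Ctnna2* on chromosome 6 (76881637 to 77979699, minus strand) and *Ctnnb1* on chromosome 9 (120929216 to 120960507, plus strand).

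The tables give TPM, a length-corrected share of each library's transcripts, together with coverage and FPKM, and read counts are not among their columns. Dividing coverage by FPKM gives 1.37 and 3.13 gigabases of aligned reads in the mutant pools and 2.85 and 2.97 gigabases in the WT pools, so the first mutant pool was the shallowest. *Shh* transcripts were at 10.4 and 10.8 TPM in the mutant pools and at 23.7 and 42.1 TPM in WT (difference −1.49 on the log2 scale, adjusted p = 0.0895 from limma), and those of the hedgehog target *Ptch1* fell from 57.8 and 55.1 TPM to 12.9 and 13.8 TPM (log2 fold change −2.00, adjusted p = 0.0319 from limma). Epithelial RNA was present in every library (*Epcam* at 86.4 to 123 TPM), and the foregut mesenchyme factor *Foxf1* was at 72.3 and 64.6 TPM in WT but at 0.848 and 9.57 TPM in *Shh-/-*. Differences are given as *Shh-/-* minus WT of log2(TPM + 1), a scale that compresses the differences of weakly expressed genes, and were tested with limma over the 16972 genes whose TPM averaged 1 or more across the libraries. Which part of *Shh* the allele removes is not given in the sources used here, so its remaining transcripts do not check the genotype.

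None of the 10 cadherin and catenin genes passed an adjusted p of 0.05 in limma, in either direction. Of all 16972 tested genes, 123 passed (0.725%), 95 of them higher (0.56%) and 28 lower (0.165%) in *Shh-/-*. At an unadjusted p of 0.05, 7 of the 10 passed, where 24.8% of all tested genes did, and *Cdh1*, *Cdh3* and *Ctnnb1* did not. For 9 of the 10, the mutant pools did not overlap the WT pools, with 7 above (38% of all tested genes) and 2 below (22.7%), and in either direction the groups stood apart for 60.7% of all tested genes. *Cdh3* was the gene whose groups overlapped. Their median log2 fold change was 0.32, beside 0.08 over all tested genes. Centering each library on its median lowered every difference by 0.13, and the direction of each of the 10 genes was the same after it, with a median of 0.19.

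**Figure D1:**
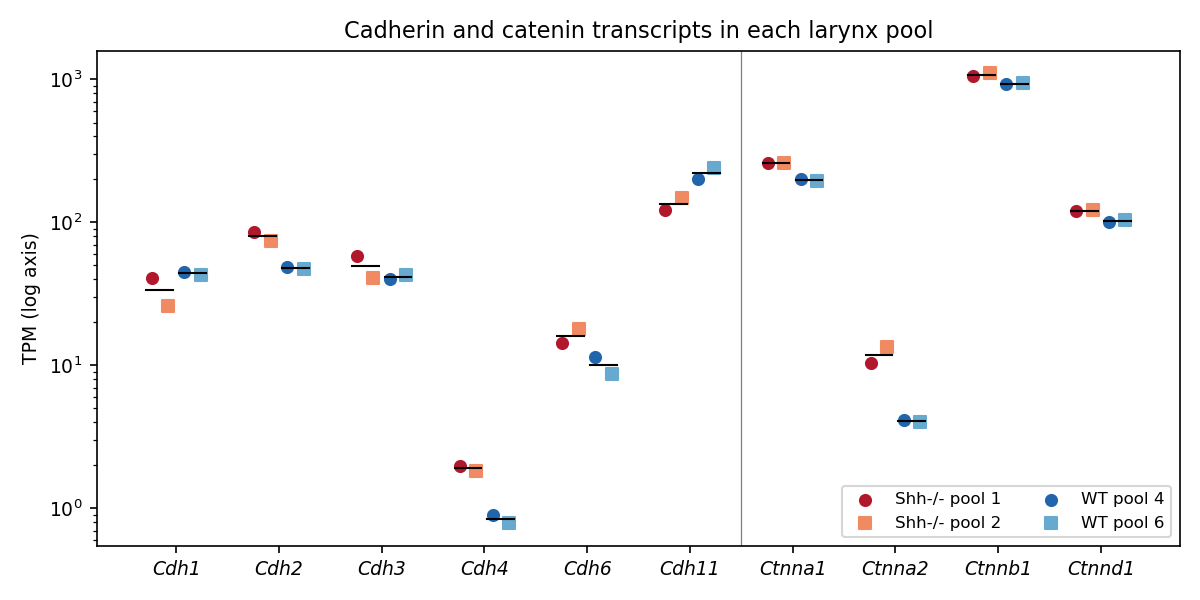
TPM of the 6 cadherin genes (left of the line) and 4 catenin genes (right) on a log axis, with 1 point for each pool (circle and square) of *Shh-/-* (red and orange) and WT (blue) and a bar at each group mean. The mutant and WT points are apart for every gene but *Cdh3*, and the widest separations are those of *Ctnna2* (10.4 and 13.4 against 4.16 and 4.03 TPM) and *Cdh4* (1.97 and 1.84 against 0.893 and 0.788 TPM).

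Among the cadherins, the order of TPM levels in WT was *Cdh11* (202 and 242), *Cdh2* (48.9 and 47.2), *Cdh1* (45.2 and 43.2), *Cdh3* (40.5 and 42.6), *Cdh6* (11.4 and 8.72) and *Cdh4* (0.893 and 0.788). *Cdh2*, *Cdh1* and *Cdh3* all lay between 40.5 and 48.9 TPM, and the 2 values of each did not overlap those of its neighbors in this order. In the mutant pools the order was *Cdh11*, *Cdh2*, *Cdh3*, *Cdh1*, *Cdh6* and *Cdh4*, and the ranges of *Cdh3* (40.9 and 58.7 TPM) and *Cdh1* (25.9 and 41.1 TPM) overlapped. Levels of different genes depend on the column. For *Cdh3*, *Cdh6*, *Cdh11* and *Ctnna1* the FPKM equaled the coverage per aligned gigabase, whereas FPKM exceeded it by a factor of 1.04 to 1.19 for *Cdh1*, of 1.67 to 1.68 for *Cdh2* and of 1.79 to 2.16 for *Cdh4*. By coverage per gigabase, *Cdh2* (14.6 and 14.1 in WT) lay below *Cdh1* (21.5 and 20.7) and *Cdh3* (20.3 and 21.3).

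*Cdh1*, the cadherin that holds simple epithelia together, was at 41.1 and 25.9 TPM in the mutant pools and at 45.2 and 43.2 TPM in WT. Both mutant values lay below both WT values. In TPM, however, the mutant pools differed from each other more than the first of them differed from WT (33.5 ± 10.7 against 44.2 ± 1.39 TPM, SD, n = 2 each). The log2 fold change was −0.42 (standard error, SE, 0.23, 95% confidence interval −1.02 to 0.17, adjusted p = 0.311 from limma). It was −0.75 without the first mutant pool and −0.10 without the second, so its size in TPM depended on which mutant pool was kept. The FPKM of *Cdh1* was 1.19 times its coverage per aligned gigabase in mutant pool 1 and 1.04 to 1.05 times in the other pools. By coverage per gigabase, *Cdh1* was at 16.5 and 12.4 in the mutant pools and at 21.5 and 20.7 in WT. There the first mutant pool lay about as far from WT as from the second mutant pool (log2 fold change −0.53 on coverage). *Cdh3*, which accompanies *Cdh1* in many embryonic epithelia, was at 58.7 and 40.9 TPM in *Shh-/-* and at 40.5 and 42.6 TPM in WT. The second mutant pool fell between the WT pools, and the first was above both. Its log2 fold change was 0.23 (95% confidence interval −0.27 to 0.73, adjusted p = 0.474 from limma), −0.021 without the first mutant pool and 0.07 after correction for GC content and length.

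The 2 epithelial cadherins were therefore set against epithelial RNA in the same libraries, as the log2 distance from the mean log2 TPM of 12 epithelium markers (*Epcam*, *Krt8*, *Krt18*, *Krt19*, *Cldn4*, *Cldn6*, *Cldn7*, *Esrp1*, *Rab25*, *Prss8*, *Spint1* and *Spint2*). *Cdh1* lay at −0.54 and −0.85 in the mutant pools and at −0.10 and −0.077 in WT. Both mutant values were lower, by 0.61 in the mean on the log2 scale (−0.61, two-sided exact permutation p = 0.333, the smallest that 2 pools against 2 allow). *Cdh3* lay at −0.027 and −0.20 in *Shh-/-* and at −0.26 and −0.10 in WT, where the groups overlapped (difference 0.07, exact permutation p = 0.667). The ratio of *Cdh3* to *Cdh1*, chosen after the values were seen, was 1.43 and 1.58 in the mutant pools and 0.895 and 0.984 in WT, a log2 difference of 0.68 (two-sided exact permutation p = 0.333). *Cdh1* and *Cdh3* summed, also chosen afterwards, lay at 0.74 and 0.51 relative to the markers in *Shh-/-* and at 0.82 and 0.91 in WT. This is a log2 difference of −0.24 (two-sided exact permutation p = 0.333). The markers themselves summed to 930 and 784 TPM in *Shh-/-* and to 770 and 723 TPM in WT. The most abundant were *Cldn6*, a claudin of embryonic epithelium, at 190.1 and 165 against 181 and 172 TPM, and the keratin *Krt18*, at 129 and 133 against 123 and 109 TPM. *Rab25*, an epithelial traffic GTPase, was furthest from 0 (log2 fold change 0.46). *Prss8* came next and was lower in *Shh-/-* (log2 fold change −0.45), at 38.6 and 13.3 against 38.0 and 26.0 TPM, where the groups overlapped. None of the 12 was called in limma, and 3 had an unadjusted p under 0.05, beside 24.8% of all tested genes. Their median log2 fold change was 0.14 (0.015 after median centering and 0.024 after correction for GC content and length). Of the 12, 10 were higher in *Shh-/-* before and 6 after median centering. In bulk tissue, fewer cells of a type and less RNA per cell cannot be told apart.

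*Cdh2*, the cadherin of neural and mesenchymal cells, was at 85.9 and 74.1 TPM in the mutant pools and at 48.9 and 47.2 TPM in WT. The mutant pools were both well above WT (80.0 ± 8.34 against 48.1 ± 1.20 TPM, SD, n = 2 each). This is a log2 fold change of 0.72 (SE 0.12, 95% confidence interval 0.41 to 1.03, adjusted p = 0.0766 from limma), and it stayed between 0.62 and 0.83 when each pool was left out. *Cdh4* encodes R-cadherin, the closest relative of *Cdh2* here and a cadherin of retina and brain. It was near the detection filter, at 1.97 and 1.84 TPM in *Shh-/-* and 0.893 and 0.788 TPM in WT. Both mutant values were above both WT values, with a log2 fold change of 0.66 (95% confidence interval 0.11 to 1.21, adjusted p = 0.161 from limma) that was 1.09 with a pseudocount of 0.1, 0.42 after correction for GC content and length and 0.27 on coverage. Coverage over its annotated exons corresponds to about 70, 128, 61 and 63 reads in the mutant pools 1 and 2 and the WT pools 4 and 6.

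The type II cadherins differed in opposite directions. *Cdh11*, a cadherin of mesenchyme and bone precursors and the most abundant of the 6, was at 123 and 147 TPM in the mutant pools and at 202 and 242 TPM in WT. Every mutant value was below every WT value, and the spread within each genotype (SD 17.4 and 27.9 TPM) was smaller than the gap between the means of 135 and 222 TPM. Its log2 fold change was −0.71 (SE 0.14, 95% confidence interval −1.09 to −0.34, adjusted p = 0.0972 from limma), with −0.85 to −0.58 when single pools were left out. *Cdh6*, a cadherin of kidney epithelium and of neural crest, was at 14.3 and 17.9 TPM in *Shh-/-* and at 11.4 and 8.72 TPM in WT. Here the mutant pools were the higher ones (log2 fold change 0.63, 95% confidence interval 0.11 to 1.15, adjusted p = 0.158 from limma). *Cdh6* and *Cdh11* lie on chromosomes 15 and 8, and their FPKM and coverage columns matched, so both differences are read from the same quantity.

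**Figure D2:**
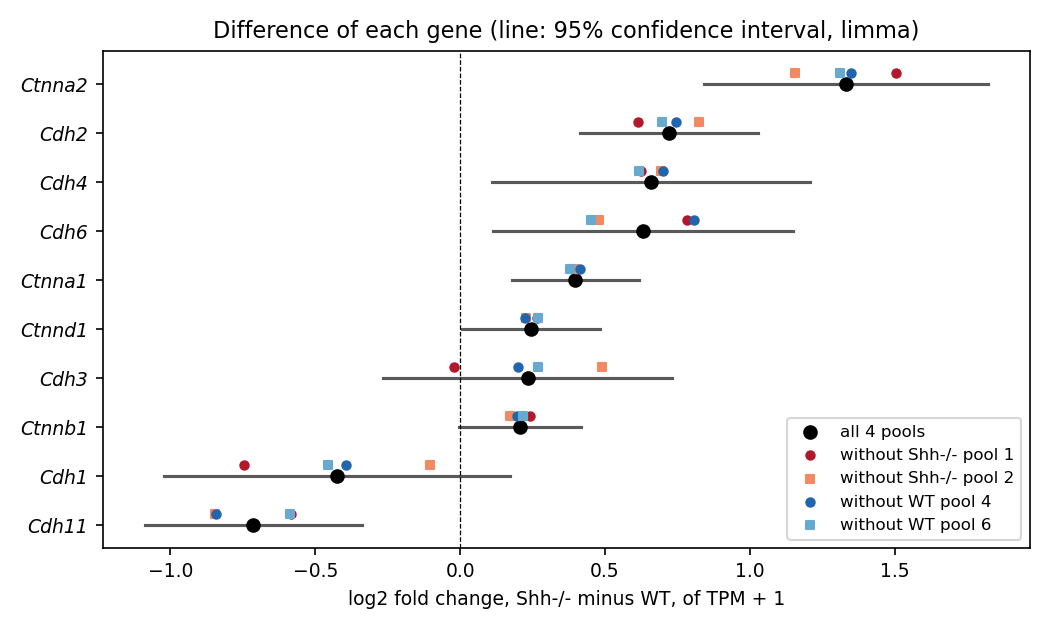
Log2 fold change of TPM + 1 (*Shh-/-* minus WT) of each of the 10 genes, with the 95% confidence interval from limma as a line, the value from all 4 pools in black and the values with each pool left out in color. The intervals of *Cdh1*, *Cdh3* and *Ctnnb1* cross 0, *Cdh11* is the gene whose whole interval lies below 0 (−1.09 to −0.34), and *Cdh3* without mutant pool 1 sits at −0.021.

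Because the 6 cadherins are measured in the same libraries, their make-up can be compared without scaling between libraries. Their summed TPM was 325 and 308 in the mutant pools and 349 and 384 in WT. *Cdh11* made up 37.8 and 47.8% of this sum in the mutant pools and 57.9 and 62.9% in WT, while *Cdh2* made up 26.5 and 24.1% and 14.0 and 12.3%. The share of *Cdh11* was thus 17.6 percentage points lower on average (−17.6) and that of *Cdh2* 12.1 points higher, and the groups did not overlap for either. The 6 shares are parts of a fixed whole, so a lower share of *Cdh11* raises the sum of the other 5, and the shares are not independent results. The TPM of *Cdh3*, for example, overlapped between the groups (58.7 and 40.9 against 40.5 and 42.6), while its share did not. *Cdh3* held 18.1 and 13.3% against 11.6 and 11.1%, *Cdh6* 4.41 and 5.81% against 3.27 and 2.27%, and *Cdh4* 0.608 and 0.597% against 0.256 and 0.205%. The share of *Cdh1* was 12.7 and 8.42% in *Shh-/-* and 12.95 and 11.3% in WT, which overlapped (two-sided exact permutation p = 0.667). The other 5 shares each had p = 0.333 in the exact permutation test, which cannot go lower with 2 pools against 2. With coverage in place of TPM, the share of *Cdh2* was 18.2 and 16.1% against 8.92 and 7.76%, and that of *Cdh11* 43.4 and 53.3% against 61.9 and 66.6%.

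**Figure D3:**
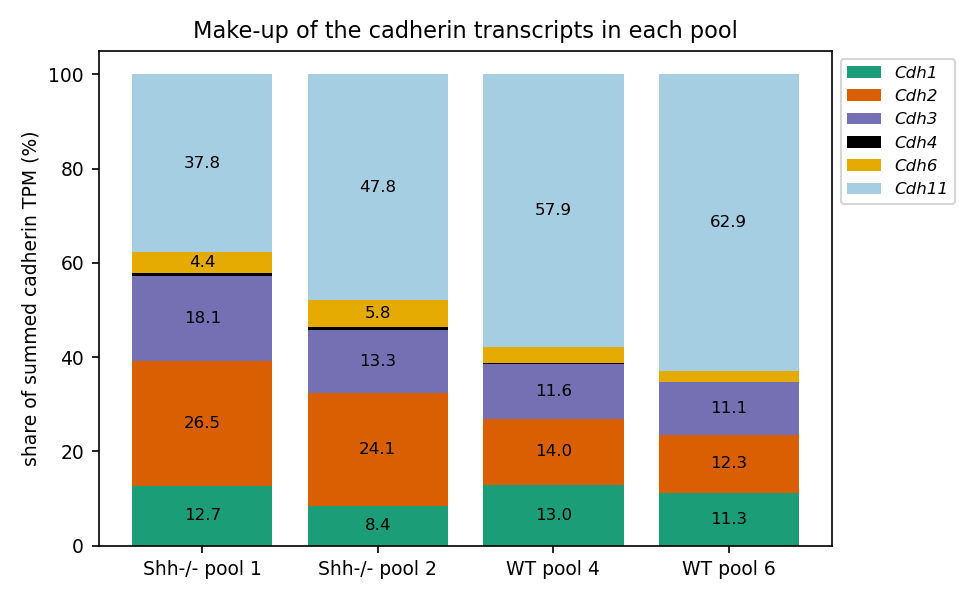
Stacked bars of the share (%) that each of the 6 cadherin genes takes of their summed TPM, 1 bar for each pool. *Cdh11* (light blue) takes 37.8 and 47.8% in the mutant pools and 57.9 and 62.9% in the WT pools, and *Cdh2* (orange) takes 26.5 and 24.1% against 14.0 and 12.3%.

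The cadherin switch is commonly read from the ratio of *Cdh2* to *Cdh1*. This ratio was 2.09 and 2.86 in the mutant pools and 1.08 and 1.09 in the WT pools. WT pools were nearly identical and both mutant pools were higher, with a difference of 1.17 on the log2 scale (two-sided exact permutation p = 0.333, the smallest possible). On coverage, where *Cdh2* is counted lower, the ratio was 1.49 and 1.78 against 0.678 and 0.679, a log2 difference of 1.27. The log2 ratio of *Cdh11* to *Cdh2*, chosen after the values were seen, was 0.51 and 0.99 in the mutant pools and 2.05 and 2.36 in WT, a difference of −1.45 (exact permutation p = 0.333). These ratios are of whole tissue, and the tables do not say whether the transcripts of *Cdh1* and *Cdh2* came from the same cells.

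**Figure D4:**
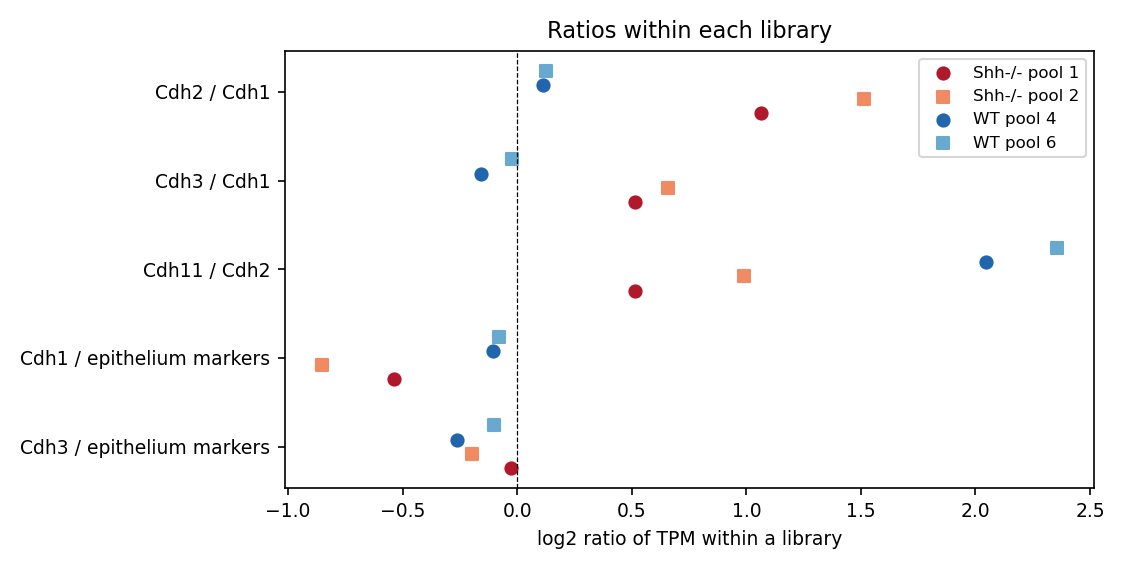
Log2 ratios of TPM within each library, 1 point for each *Shh-/-* pool (red and orange) and WT pool (blue); the epithelium marker level is the mean log2 TPM of 12 genes. For *Cdh2* to *Cdh1* the mutant pools lie at 1.06 and 1.52 and the WT pools at 0.11 and 0.13, whereas for *Cdh3* relative to the epithelium markers the groups overlap.

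Markers of other cell types were higher in the same pools as *Cdh2*. Of all tested genes, 0.56% were called higher in *Shh-/-*, the share beside which the calls below stand. All 12 neuron markers of a list were tested and 11 were higher in *Shh-/-*, with 1.53 as the median log2 fold change and 5 called (*Stmn2*, *Tubb3*, *Elavl3*, *Nefl* and *Gap43*). Their summed level was 915 and 994 TPM in the mutant pools and 333 and 294 TPM in WT, and *Tubb3*, a neuronal tubulin, rose from 37.6 and 21.5 to 184 and 203 TPM (adjusted p = 0.0422 from limma). Of 11 tested muscle markers, all were higher before and 9 after median centering, with a median of 1.38 and 2 called (*Myh7* and *Myh6*, cardiac myosins), and they summed to 240 and 369 against 129 and 130 TPM. Neural crest and glial precursor markers summed to 284 and 237 against 195 and 161 TPM, with 11 of 12 tested markers higher and 1 called (*Ngfr*, a neurotrophin receptor, log2 fold change 1.75). No tested marker of these lists was listed at 0 in any library. The part of these cells in the *Cdh2*, *Cdh4*, *Cdh6* and *Ctnna2* values was not tested.

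Mesenchyme markers were of mixed direction. Of 10 foregut mesenchyme markers, 4 were higher and 6 lower in *Shh-/-*, with −0.52 as the median log2 fold change. They summed to 521 and 503 TPM in the mutant pools and to 464 and 455 TPM in WT. Abundant markers weigh most in this sum, among them *Twist1* (147 and 125 against 46.1 and 43.8 TPM) and *Prrx1* (178 and 129 against 65.6 and 71.1 TPM). The higher sum is therefore not shared by most of the list. *Twist1* was called higher, while *Foxf1*, *Osr1*, *Tbx5*, *Wnt2* and *Tcf21* had log2 fold changes of −3.97, −1.58, −2.23, −1.44 and −0.78 without passing the test. The mutant pools differed among themselves for these genes, with *Wnt2* at 0.604 and 5.04 TPM against 8.37 and 6.58 TPM in WT and *Tcf21* at 37.7 and 70.2 against 90.3 and 88.4 TPM. Without the first mutant pool the log2 fold change was −0.48 for *Wnt2* and −0.34 for *Tcf21*, and without the second it was −2.39 and −1.22. *Cdh11* was thus lower in the pools in which these 5 mesenchyme genes were lower, and *Twist1*, *Prrx1* and *Meox1* were higher in the same pools. Which mesenchymal cells carried the *Cdh11* transcripts was not tested.

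The 4 catenins were all higher in *Shh-/-*, with both mutant pools above both WT pools for each. *Ctnnb1*, beta-catenin, was at 1055 and 1106 TPM in the mutant pools and at 928 and 942 TPM in WT. This is a small difference (log2 fold change 0.21, 95% confidence interval −0.0037 to 0.42, adjusted p = 0.207 from limma), and 0.08 after median centering. *Ctnnd1*, the catenin that holds cadherins at the membrane, was at 120 and 123 TPM against 100.3 and 104 TPM (log2 fold change 0.25, 95% confidence interval 0.0083 to 0.48, adjusted p = 0.193 from limma), and 0.12 after median centering. The span of the predicted gene *Gm28635* overlaps that of *Ctnnd1* over 49327 bases of the same strand, and *Gm28635* was listed at 0. Whether the 2 entries share exons, and so reads, was not tested. *Ctnna1*, alpha-E-catenin, the general actin-linking catenin, was at 260 and 261 TPM in *Shh-/-* and at 200 and 195 TPM in WT. Its pools were nearly identical within each genotype, and the log2 fold change was 0.40 (SE 0.08, 95% confidence interval 0.18 to 0.62, adjusted p = 0.103 from limma).

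*Ctnna2*, alpha-N-catenin, the neural counterpart of *Ctnna1*, had the largest difference of the 10 genes. It was at 10.4 and 13.4 TPM in the mutant pools and at 4.16 and 4.03 TPM in WT. The WT pools agreed closely and both mutant pools were above them, with a log2 fold change of 1.33 (SE 0.19, 95% confidence interval 0.84 to 1.82, adjusted p = 0.0648 from limma). It remained between 1.16 and 1.504 with each pool left out. The ratio of *Ctnna2* to *Ctnna1*, chosen after the values were seen, was 0.0399 and 0.0516 in *Shh-/-* and 0.0208 and 0.0207 in WT (log2 difference 1.13, two-sided exact permutation p = 0.333). Here too the columns of the tables diverge, since the FPKM of *Ctnna2* was 16.4 to 18.9 times its coverage per aligned gigabase. The coverage was 0.264 and 0.408 per gigabase in *Shh-/-* and 0.117 and 0.115 in WT, so the groups lay apart in the same direction, but this corresponds to only about 33, 118, 31 and 32 reads over the annotated exons. These read figures rest on the coverage column alone, and why FPKM is higher was not tested. *Ctnna2* also hosts the neuronal gene *Lrrtm1* on the opposite strand (1.34 TPM on average) and 9 weakly covered entries on its own strand. Whether those 9 share exons, and so reads, with *Ctnna2* was not tested.

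*Ctnnb1* also had unequal columns, with FPKM at 6.57 to 7.02 times coverage per gigabase. By TPM it was the most abundant of the 10 genes in every library, but by coverage *Ctnna1* (125 and 130 per gigabase in *Shh-/-*, 100.0 and 97.4 in WT) exceeded *Ctnnb1* (77.0 and 78.7, and 66.2 and 67.7). In the WT pools *Cdh11* had the highest coverage of the 10 genes (101.2 and 120.8 per gigabase), while in the mutant pools it lay below *Ctnnb1* (58.9 and 73.3). The order of these 3 genes therefore depends on the column. The 4 catenins summed to 1444 and 1503 TPM in the mutant pools and to 1233 and 1244 TPM in WT. Relative to the 6 cadherins, this was a ratio of 4.45 and 4.88 in *Shh-/-* and of 3.53 and 3.24 in WT, with a log2 difference of 0.46 (two-sided exact permutation p = 0.333). On coverage the ratio was 1.74 and 1.77 against 1.20 and 1.07, with a log2 difference of 0.63. The size of the ratio depended on the column and its direction did not. *Cdh11* made up 37.8 and 47.8% of the cadherin sum in *Shh-/-* and 57.9 and 62.9% in WT. It was lower in *Shh-/-*, whereas *Cdh2*, *Cdh3*, *Cdh4* and *Cdh6* were higher by log2 fold change. The ratio therefore depends in large part on *Cdh11* and does not describe each cadherin. A ratio without *Cdh11* was not tested.

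Other cadherins were measured in the same libraries, and 8 of 13 passed the filter (not *Cdh7*, *Cdh12*, *Cdh15*, *Cdh20* and *Cdh22*). None was called in limma, and 4 had an unadjusted p under 0.05, beside 24.8% of all tested genes. In *Shh-/-*, 5 were higher and 3 lower, and the median log2 fold change was 0.29. *Cdh5*, the cadherin of endothelium, was the most abundant of them, at 72.8 and 78.5 TPM in *Shh-/-* and 52.2 and 47.8 TPM in WT (log2 difference 0.59, adjusted p = 0.0895 from limma). It is itself 1 of 7 endothelium markers, which were all higher, with sums of 332 and 385 against 213 and 199 TPM. Of the 7, 1 (*Tie1*, an endothelial receptor kinase) was called, beside 0.56% of all tested genes called higher. The tight junction gene *Cldn5* was furthest from 0 among them (log2 fold change 1.36). *Cdh24*, a type II cadherin, was at 22.8 and 17.4 against 13.6 and 10.00 TPM, and *Cdh9*, a type II cadherin of neurons, was the furthest from 0 of the list (0.672 and 0.940 against 2.82 and 3.24 TPM, log2 fold change −1.16, adjusted p = 0.0895 from limma).

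Of 6 further genes of the catenin family, 5 were tested (not *Ctnna3*), and 4 were higher. None was called in limma, and 3 had an unadjusted p under 0.05, beside 24.8% of all tested genes. The median log2 fold change was 0.49, or 0.13 after correction for GC content and length. *Jup* encodes plakoglobin, the close relative of beta-catenin that serves both adherens junctions and desmosomes. It was at 52.5 and 55.4 TPM in *Shh-/-* and at 30.7 and 25.2 TPM in WT (log2 difference 0.93, adjusted p = 0.0688 from limma). *Arvcf*, a relative of *Ctnnd1*, was at 46.2 and 37.0 against 31.8 and 26.8 TPM, and *Ctnnd2*, the neural delta-catenin, had the largest difference of the list (13.3 and 8.13 against 4.60 and 4.88 TPM, log2 fold change 0.996, adjusted p = 0.128 from limma). Both neural catenins, *Ctnna2* and *Ctnnd2*, thus had a larger difference than *Ctnna1* and *Ctnnd1*. Whether the differences themselves differ was examined for *Ctnna2* and *Ctnna1* alone, by the ratio above. The exact permutation test of that ratio cannot fall below p = 0.333 with 2 pools against 2, so it cannot decide this.

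Among 14 partners of the adherens junction, which include nectins, actin linkers and scaffold proteins, none was called in limma. An unadjusted p under 0.05 was found for 6 of them, beside 24.8% of all tested genes. In *Shh-/-*, 12 were higher before and 11 after median centering, and the median log2 fold change was 0.31, or 0.17 after correction for GC content and length. The actin crosslinkers *Actn4* (206 and 201 against 165 and 134 TPM) and *Actn1* (109 and 110 against 108 and 81.9 TPM) were the most abundant. *Lima1*, which joins alpha-catenin to actin, was at 83.1 and 75.01 against 45.5 and 38.8 TPM. *Afdn*, afadin, which links nectins to actin, went the other way from most of the list and was furthest from 0, at 46.8 and 37.5 TPM in *Shh-/-* and 85.7 and 77.9 TPM in WT (log2 difference −0.95, adjusted p = 0.0713 from limma). Of 6 genes of cadherin turnover and traffic, 4 were higher, with a median of 0.19 (0.34 after the same correction and 0.060 after median centering). None of the 6 was called in limma, and 1 had an unadjusted p under 0.05, beside the same 24.8%. *Rab11b*, a recycling endosome GTPase, was at 39.9 and 40.4 against 20.7 and 30.2 TPM (log2 fold change 0.66, adjusted p = 0.15 from limma), and its relative *Rab11a* was at 68.8 and 94.98 against 62.5 and 56.6 TPM. *Adam10*, a protease that sheds the extracellular part of cadherins, was at 60.5 and 61.0 against 62.2 and 62.7 TPM (log2 fold change −0.04).

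**Figure D5:**
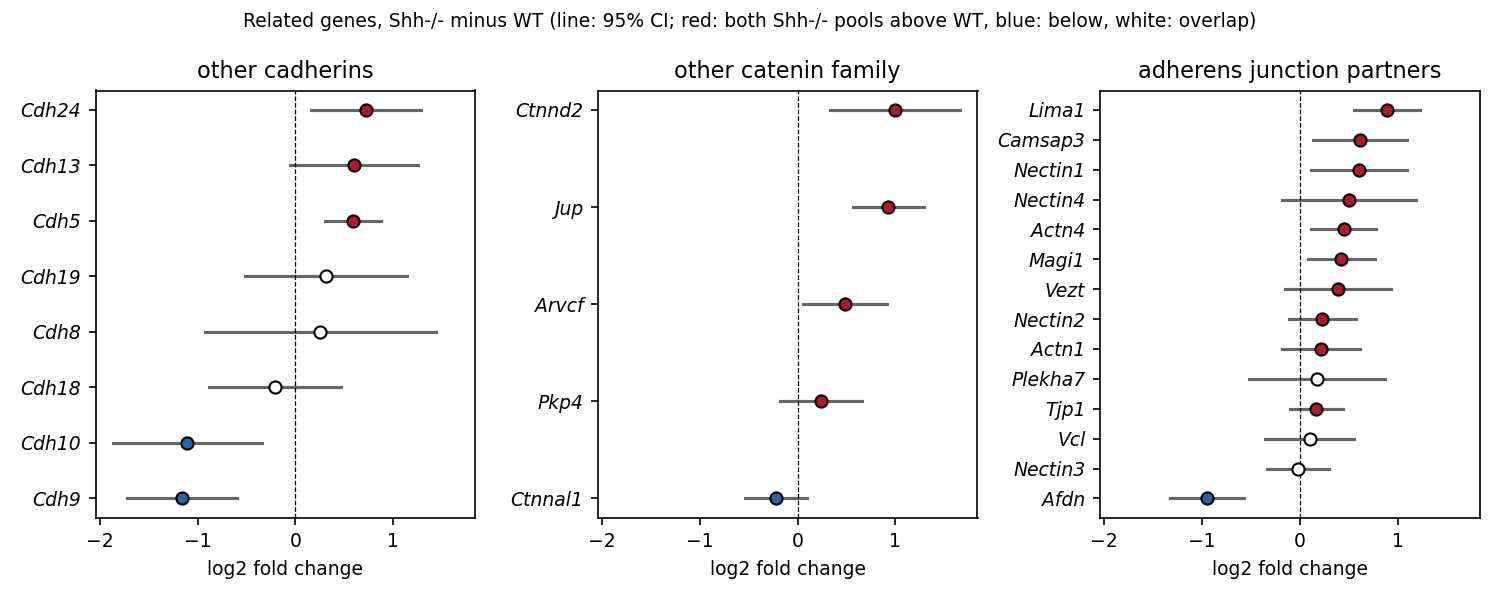
Log2 fold change of TPM + 1 (*Shh-/-* minus WT) with 95% confidence intervals from limma for 8 other cadherins, 5 other genes of the catenin family and 14 adherens junction partners; red points have both *Shh-/-* pools above both WT pools, blue points both below, and white points overlap. *Lima1* (0.89) and *Afdn* (−0.95) lie at the ends of the partner list.

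Beta-catenin is destroyed by a complex of *Apc*, *Axin1*, *Gsk3b* and other proteins, and 8 genes of it were tested. None was called in limma, and 3 had an unadjusted p under 0.05, beside 24.8% of all tested genes. Of the 8, 6 were higher before and 5 after median centering, and the median was 0.28, or 0.15 after correction for GC content and length. *Csnk1a1* (171 and 169 against 163 and 155 TPM) and *Gsk3a* (92.3 and 82.0 against 72.0 and 62.2 TPM), kinases that phosphorylate beta-catenin, were the most abundant, and *Apc2*, the neural relative of *Apc*, had the largest difference (3.49 and 3.11 against 0.982 and 0.762 TPM, log2 fold change 1.20, adjusted p = 0.0818 from limma). Among 8 nuclear partners of beta-catenin, 7 were higher and the median was 0.52 (0.31 after this correction). None of these was called in limma, and 5 had an unadjusted p under 0.05, beside the same 24.8%. *Bcl9*, a coactivator, was at 71.0 and 64.6 against 59.1 and 51.7 TPM, *Tcf7l1*, a DNA-binding partner, was at 63.6 and 52.0 against 39.1 and 30.9 TPM, and *Lef1*, another, was at 23.7 and 16.8 against 10.8 and 9.43 TPM (log2 fold change 0.92, adjusted p = 0.108 from limma).

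Transcription factors known to act on the *Cdh1* promoter include repressors that bind E-boxes (*Snai1*, *Snai2*, *Zeb1*, *Zeb2*, *Twist1*, *Tcf3* and *Tcf4*) and factors that accompany its expression in epithelium (*Foxa1*, *Foxa2* and *Grhl2*). Of the 10, all were tested and 1 was called, beside 0.725% of all tested genes. This was *Twist1*, which rose from 46.1 and 43.8 TPM in WT to 147 and 125 TPM in *Shh-/-* (log2 fold change 1.57, SE 0.12, adjusted p = 0.0323 from limma). The other repressors had log2 fold changes of −0.09 (*Snai1*), 0.63 (*Snai2*), 0.23 (*Zeb1*), −0.46 (*Zeb2*), 0.47 (*Tcf3*) and 0.26 (*Tcf4*), and none passed the test. *Foxa2* was at 5.34 and 9.12 TPM in *Shh-/-* and at 29.2 and 39.8 TPM in WT (log2 difference −2.13, adjusted p = 0.0602 from limma), *Foxa1* at 14.5 and 15.6 against 25.6 and 37.8 TPM (−1.004), and *Grhl2* at 12.3 and 9.66 against 9.45 and 11.2 TPM (0.08). *Twist1* is also expressed in mesenchyme, and a link between these factors and the *Cdh1* values was not tested.

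Promoter sequences from RefSeq (GRCm38.p6) were found for 4 of the 10 genes, *Cdh6*, *Ctnna2*, *Ctnnb1* and *Ctnnd1*, in 6 windows of 300 bases that run from 250 bases before to 50 after a transcript start. The E-box CACCTG, searched on both strands (CAGGTG on the other), was present in 1 of them, that of *Ctnna2*, where it begins 182 bases before the start. Of all 32851 windows, 20.2% hold it. The match is a description of letters, and *Cdh1*, *Cdh2*, *Cdh3*, *Cdh4*, *Cdh11* and *Ctnna1* were not searched.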

How the data were processed

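Per the labels and the paper's methods, the authors made poly(A)-selected directional libraries, sequenced them single-end, aligned them to mm10 (HISAT2 2.1.0) and assembled genes with StringTie 1.3.6. The deposited coverage is StringTie's mean signal per base without scaling between libraries, the deposited FPKM is scaled to the library's aligned bases, and the deposited TPM is FPKM scaled to a fixed total per library. No counts were used, so a count model was not possible and precision rests on 2 pools per genotype.

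Here TPM was summed per gene identifier (18 identifiers had more than 1 row) and log2(TPM + 1) was compared with limma 3.58.1 in R 4.3.3 (lmFit, eBayes with trend, two-sided, no covariates, Benjamini-Hochberg adjustment, threshold 0.05) over genes whose TPM averaged 1 or more. Ratios and shares were tested by two-sided exact permutation (Python 3.11.15). The script was tested on simulated data. Coverage was divided by aligned gigabases. Read equivalents are coverage times GENCODE M21 exon length over 75 nt, a read length inferred from how often weakly covered genes gave whole reads. A value of 0 may be a failed estimate.

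The members and the gene lists were chosen with earlier results of these data known. The genes named are the 10 members, *Shh*, *Ptch1* and all regulators of the *Cdh1* promoter. For each list they are the called genes, otherwise the 2 with the highest mean TPM, plus the gene with the largest absolute log2 fold change. Other names were added after their values were seen (*Epcam*, *Prss8*, *Lima1*, 6 further mesenchyme genes and the genes below the filter). Nectins and afadin were matched by gene identifier. Alternatives were a pseudocount of 0.1, no filter or a minimum mean of 5 TPM, median centering, quantile normalization, removal of haemoglobin and mitochondrial genes, FPKM, eBayes without trend or robust, correction for GC content and length, each pool left out and, added after seeing the data, coverage per aligned gigabase in place of TPM.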

Additional observations from a re-analysis of the deposited data

How the results depend on the processing

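The direction of the 10 genes held in 148 of 149 alternative values, the exception being *Cdh3*, at −0.021 without mutant pool 1 and up to 0.49 with other pools left out. None of the 149 values passed the threshold (lowest adjusted p = 0.0613 from limma). Without the filter, on coverage and in some fits with a pool left out, no gene was called at all. In those settings the absence of calls among the 10 was fixed in advance. The number of genes called was 123, 69 with a pseudocount of 0.1, 0 without the filter (5011 at an unadjusted p under 0.05, limma), 0 on coverage (4371 unadjusted) and 0 to 16 with each pool left out (2070 to 3761 unadjusted), where the lone pool of a genotype is assumed to vary like the other group. The cause was not tested. With each pool left out, the difference in the share of *Cdh1* ran from −3.68 to 0.564 percentage points, positive without mutant pool 2 (−1.56 with all pools), and that of *Cdh3* relative to the epithelium markers from −0.015 (without mutant pool 1; −0.012 without WT pool 4) to 0.16 (0.07 with all pools). The difference of *Ctnna2* was 0.26 and that of *Cdh4* 0.27 on coverage, where adding 1 outweighs values under 1, and that of *Cdh3* was 0.07 after correction for GC content and length. No paired analysis was possible because the genotypes share no replicate number (1 and 2 against 4 and 6). Judged by the coverage column, depth limits *Cdh4* and *Ctnna2* most.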
